A study of Mus musculus with 22 samples.

Results

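A set of 2259 sites was described at which the insulator protein CTCF and the cohesin subunit RAD21 both had peaks in wild-type (WT) mouse crypts. They lay at or beside peaks of the Polycomb mark H2AK119ub1, called in WT crypts of another mouse line. The set was chosen from the peak lists themselves. H2AK119ub1 peaks of WT AhCre crypts were joined where gaps were 2 kb or less, which gave 8948 regions. A RAD21 peak of WT Villin crypts was taken when it overlapped a WT CTCF peak by 1 bp or more, overlapped no WT PCGF6 peak, and lay inside one of these regions or within 5 kb of it. Of 20653 WT RAD21 peaks, 18000 overlapped a CTCF peak, and 2259 of these were members. A further 1154 sites near a region were left out because they overlapped a PCGF6 peak, and 11554 sites without PCGF6 lay beyond 5 kb. The regions were mostly short, with a median width of 1800 bp, and 585 of 8948 spanned 10 kb or more, so they are called regions rather than domains. Many were also weak, with a median score of 14.1 on lists that start at 10, and of 12.2 for regions under 2 kb. Of the 2259 members, 1076 were at regions under 2 kb, and 1280 lay beyond 5 kb of any Villin WT region of the mark.

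The compared crypts were Pcgf6 knockout (KO) and WT crypts of the small intestine of C57BL/6 mice, in a line with the AhCre driver and a line with the Villin driver. The series' description speaks of male mice aged 8 to 12 weeks, taken 7 days after tamoxifen (Villin) or beta-naphthoflavone (AhCre). That text was written for RNA, and nothing says that the crypts used for ChIP were taken likewise. A Cre driver acts only in the cells where it is active. CTCF and RAD21 were profiled in Villin KO and WT crypts, PCGF6 in AhCre KO and WT crypts, and RING1B and H2AK119ub1 in both lines, so the mark and the sites that define the set come from different mice. H2AK119ub1 chromatin of every group had 5% Drosophila S2 chromatin added. E14 embryonic stem cells (ESC), a mouse line, were WT and profiled for PCGF6 and RING1B. The KO crypts still gave 4779 PCGF6 peaks, against 17163 in WT crypts. With 1 library per group there is no spread between replicates, and no difference between KO and WT was tested. Both AhCre H2AK119ub1 lists stood apart on chromosome X. The KO list had 1950 of 16039 peaks there (12.2%), and the WT list, which defines the regions, had 29 of 13175 (0.220%). The Villin lists of the same mark had 2.44% in KO and 2.81% in WT. Only 3 members lay on chromosome X, all of them edge sites that were inside a KO region, and results that rest on the AhCre KO list are given below with and without that chromosome where it moves them. Peak lists hold no amount of a cell type, so the labelled epithelium could not be checked against its markers. The lists hold no read counts, and the depth of the libraries is unknown. All scores are the authors' −log10 p or q values, of 10 or more, and which of them is meant was not stated. Intervals are exact 95% Clopper-Pearson intervals unless another kind is named, and they cover the counting of sites only.

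CTCF binds a long, oriented DNA motif and stops the cohesin ring as it extrudes chromatin loops, so that cohesin collects at CTCF sites and the pair marks loop anchors and domain borders. RAD21 is the subunit that closes the ring. H2AK119ub1 is placed by the Polycomb repressive complex PRC1, whose catalytic subunit is RING1B and whose variant forms include one built around PCGF6. In the gut epithelium Polycomb is known to keep developmental regulators of other lineages silent, and Hox clusters are textbook Polycomb domains with CTCF sites within them.

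Promoter sequences were shown for 6 members to make the sites concrete, 4 of which kept RAD21 in KO crypts and 2 of which did not. They were picked after their values were seen. Each is up to 120 bases of the RefSeq promoter window (GRCm38.p6), printed 5′ to 3′ on the strand of the named gene and ending at its start at the latest. Capitals mark a match to a shortened CTCF core, read as CC, any 3 bases, AG, any 2 bases and GGC, or to its reverse complement. The first stretch, at chr2:74716138-74716257 on the minus strand, is the promoter of the antisense gene Hoxd3os1, inside a region, under the member placed at Hoxd3. The second, at chr5:119691270-119691389 on the minus strand, belongs to Tbx3os2, beside the T-box gene Tbx3. The third, at chr11:115322431-115322529 on the plus strand, belongs to Otop2, a proton channel gene. The fourth, at chr3:96708561-96708631 on the minus strand, belongs to Nudt17 and lay 131 bp outside its region. The fifth, at chr3:87769093-87769203 on the minus strand, belongs to Pear1, a platelet receptor gene, 99 bp outside its region. The last, at chr15:98789615-98789734 on the plus strand, belongs to Wnt1, a Wnt ligand gene, inside a region.
Hoxd3os1: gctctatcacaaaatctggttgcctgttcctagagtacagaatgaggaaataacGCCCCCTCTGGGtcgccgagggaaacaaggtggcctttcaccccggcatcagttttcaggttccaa
Tbx3os2: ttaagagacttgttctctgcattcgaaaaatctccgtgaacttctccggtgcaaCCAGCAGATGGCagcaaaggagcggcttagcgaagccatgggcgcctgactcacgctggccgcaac
Otop2: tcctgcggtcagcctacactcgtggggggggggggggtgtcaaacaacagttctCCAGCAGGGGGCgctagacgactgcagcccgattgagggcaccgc
Nudt17: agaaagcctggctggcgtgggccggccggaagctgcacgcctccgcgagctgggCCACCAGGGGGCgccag
Pear1: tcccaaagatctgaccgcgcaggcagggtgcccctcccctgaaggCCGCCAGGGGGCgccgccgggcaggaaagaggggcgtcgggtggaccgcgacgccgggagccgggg
Wnt1: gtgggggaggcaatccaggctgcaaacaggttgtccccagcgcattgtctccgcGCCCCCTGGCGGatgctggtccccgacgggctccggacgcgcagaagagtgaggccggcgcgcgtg

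At the sites under these stretches, CTCF peaks were found in both genotypes. At Hoxd3os1, RAD21 scored 77.8 in KO and 75.6 in WT crypts, and CTCF scored 118 in KO and 167 in WT. At Tbx3os2, RAD21 scored 86.3 in KO and 123 in WT, and CTCF 186 in KO and 223 in WT. The Otop2 site scored 126 in KO and 131 in WT for RAD21. These 3 sites were inside a region in both KO and WT AhCre crypts. At Nudt17, RAD21 scored 37.9 in KO and 67.3 in WT, while CTCF scored 295 in KO and 283 in WT. Pear1 had no KO RAD21 peak, against a WT score of 19.9, with CTCF scores of 280 in KO and 231 in WT. Wnt1 had none either, against a WT score of 13.6, with CTCF scores of 56.3 in KO and 103 in WT. RAD21 was thus not listed in KO at a site whose WT CTCF score was above the members' median of 144 (Pear1) and at one below it (Wnt1).

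Only a small part of the members could be searched for the motif, because sequence was at hand for promoter windows (250 bases before to 50 after a gene's start) and not for the genome. Of the 2259 members, 130 touched such a window, and 38 of these (29.2%, interval 21.6 to 37.8) held a match on either strand in the part covered by the RAD21 peak. The share was 29.0% at sites beyond 5 kb without PCGF6 (102 of 352) and 26.4% at all co-occupied sites (478 of 1810). Whole windows touched by a member held a match in 28.4% of cases (40 of 141), against 8.61% of all 32851 windows. Members had to overlap a CTCF peak, so the choice itself favours this gap. Members with a match had a median WT CTCF score of 168, against 101 for those without one. At the 15 edge members with a single match, it read towards the region in 7 and away from it in 8. RAD21 was lost in KO crypts at 7 of the 38 members with a match and at 28 of all 130 on a window, against 16.4% of all 18000 co-occupied sites.

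Members were divided about evenly between the inside of regions and their surroundings, and which held more depended on how place was judged. By overlap, 1218 sites were inside (53.9%, interval 51.8 to 56.0), of which 692 were wholly contained and 526 reached over a region's end. By midpoint, 842 sites were inside and 1353 within 5 kb. The inside share by overlap was 42.1% with sites up to 10 kb away and 50% with regions from the Villin WT list. The other 1041 lay at the edge, at a median distance of 1711 bp, and 377 of them within 1 kb of an end. The region lay to the right of 495 edge sites. Sites 4.5 to 5 kb away, just within the limit, numbered 88 and had median WT scores of 40.9 for RAD21 and 144 for CTCF. Just outside it, at 5 to 5.5 kb, 78 sites had medians of 34.5 and 121. Members were spread over 1997 of the 8948 regions, of which 1760 had 1 member, 214 had 2, 21 had 3 and 2 had 4. Edge members stood on both sides of 39 regions. The members rested on 2236 CTCF peaks, and 165 members lay within 2 kb of another, so they are not fully separate.

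Sites with CTCF and RAD21 became denser towards the mark. Counting each site without PCGF6 by its midpoint, there were 26.6 sites per Mb inside regions (842 sites in 31.7 Mb, exact Poisson interval 24.8 to 28.5). The density was 17.8 per Mb within 5 kb, 11.7 at 5 to 10 kb, 9.81 at 20 to 50 kb and 6.93 at 100 to 200 kb. The density inside was 2.71 times that at 20 to 50 kb (interval 2.50 to 2.94). CTCF peaks without RAD21, which the choice of members did not use, followed the same order with a smaller step, at 14.6 per Mb inside and 9.98 per Mb at 20 to 50 kb, a ratio of 1.46 (interval 1.32 to 1.62). In regions of 10 kb or more, the density was 33.3 per Mb in the outermost 1 kb, 30.8 at 1 to 2 kb, and 15.9 per Mb further than 5 kb from either end. Sites were thus about as dense deep inside broad regions as just outside regions in general.

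**Figure D1:**
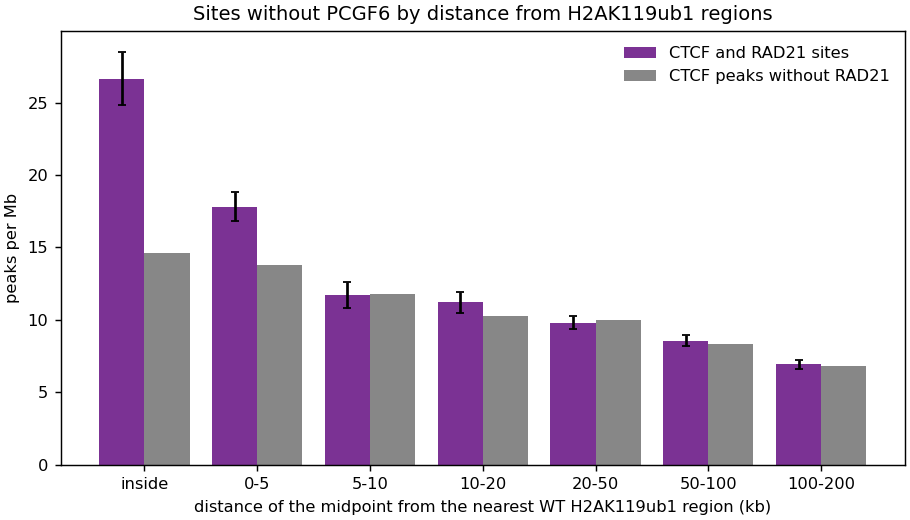
Density of CTCF and RAD21 sites without PCGF6 (purple, bars with exact Poisson 95% intervals) and of CTCF peaks without RAD21 or PCGF6 (grey, no interval drawn), in peaks per Mb, by the distance of the midpoint from the nearest WT AhCre H2AK119ub1 region. Co-occupied sites stand at 26.6 per Mb inside regions and at 6.93 per Mb at 100 to 200 kb, and the grey bars run from 14.6 to 6.80.

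Members had higher WT scores than sites beyond 5 kb without PCGF6, and lower ones than the sites near a region that overlapped PCGF6. The median WT RAD21 score was 41.6 inside and 35.9 at the edge, against 46.1 at sites near a region with PCGF6 and 33.1 at sites beyond 5 kb without it. For CTCF the medians were 154 inside and 131 at the edge, against 198 near a region with PCGF6 and 106 beyond. The median width of the RAD21 peak was 670 bp inside and 571 bp at the edge, against 868 bp near a region with PCGF6 and 560 bp beyond. A wider peak is more likely to touch a region and so to be counted as inside, since place was judged by overlap. The range of single members covered the whole scale, with RAD21 scores between 10.1 and 262 and CTCF scores between 10.1 and 474.

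The strongest inside member lay 6359 bp from Grm4, a metabotropic glutamate receptor gene, in a region of 13713 bp, and scored 120 for RAD21 in KO and 262 in WT crypts. The next, 39390 bp from Cyria, scored 190 in KO and 262 in WT. Sites near Crybb2, a lens crystallin gene, and Zbp1, a sensor of Z-form nucleic acid, scored 194 and 180 in KO, against 247 and 236 in WT. Sites within Arnt2 and Snx10 completed the 6 strongest, with 193 and 150 in KO, against 222 and 212 in WT. All 6 had a lower RAD21 score in KO than in WT, and all were still inside a KO region in AhCre crypts. Their choice by the WT score favours a lower second value. The strongest edge member lay in Selenom, a selenoprotein gene, 46 bp from its region, and scored 168 in KO and 243 in WT. A site 38751 bp from Irf8, an interferon regulatory factor gene, scored 178 in KO and 220 in WT, and no KO H2AK119ub1 region remained within 5 kb of it. Near Ano1, a chloride channel gene, the score was 169 in KO and 192 in WT, and within the sialyltransferase gene St3gal3 it was 175 in KO and 172 in WT. A site was placed at the genes it overlapped, or else at the nearest gene end within 50 kb, and the placing says nothing of which gene it acts on.

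In Villin KO crypts, RAD21 peaks were missing at 308 of 2259 members (13.6%, interval 12.2 to 15.1), against 16.4% of all 18000 co-occupied sites. A peak is called lost when no KO peak of the same protein overlaps it by 1 bp. CTCF peaks were missing at 33 members (1.46%, interval 1.01 to 2.05), against 2.67% of all co-occupied sites. At sites beyond 5 kb without PCGF6, which share the absence of PCGF6 with the members, the losses were 15.4% for RAD21 and 1.42% for CTCF. Both shares at the members lay near the background. Of the 2259 members, 1945 kept both peaks, 281 lost RAD21 only, 27 lost both and 6 lost CTCF only.

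RAD21 peaks that remained scored somewhat lower in KO, and more so inside regions than at their edge. Over 1951 members with RAD21 peaks in both genotypes, the median log2 ratio of the KO score to the WT score was −0.16 (interval −0.19 to −0.14 from order statistics), and it was also −0.16 over all co-occupied sites. It was −0.20 inside (−0.24 to −0.17), −0.12 at the edge (−0.15 to −0.08) and −0.13 at sites beyond 5 kb without PCGF6 (−0.14 to −0.12), so the inside interval lay apart from the other two. At sites near a region with PCGF6 it was −0.29 (−0.34 to −0.25). For CTCF the median was −0.02 over 2226 members (−0.03 to −0.01) and −0.01 over all sites, while at sites beyond 5 kb without PCGF6 it was 0.03 (0.03 to 0.04), of the opposite sign. The KO score of RAD21 was the higher one at 680 of 1951 members (34.9%), against 35.9% of all co-occupied sites and 39.2% of those beyond 5 kb without PCGF6. RAD21 scored under 50% of the WT value in KO at 75 members (3.84%), against 3.32% of sites beyond 5 kb without PCGF6, and over 2 times the WT value at 21. These scores come from separate peak calls and are not scaled between libraries. The ratios above were not matched for WT score, which was higher inside, and are given by band of score below. The list of all KO RAD21 peaks was also shorter than the WT list, with 17762 and 20653 peaks.

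**Figure D2:**
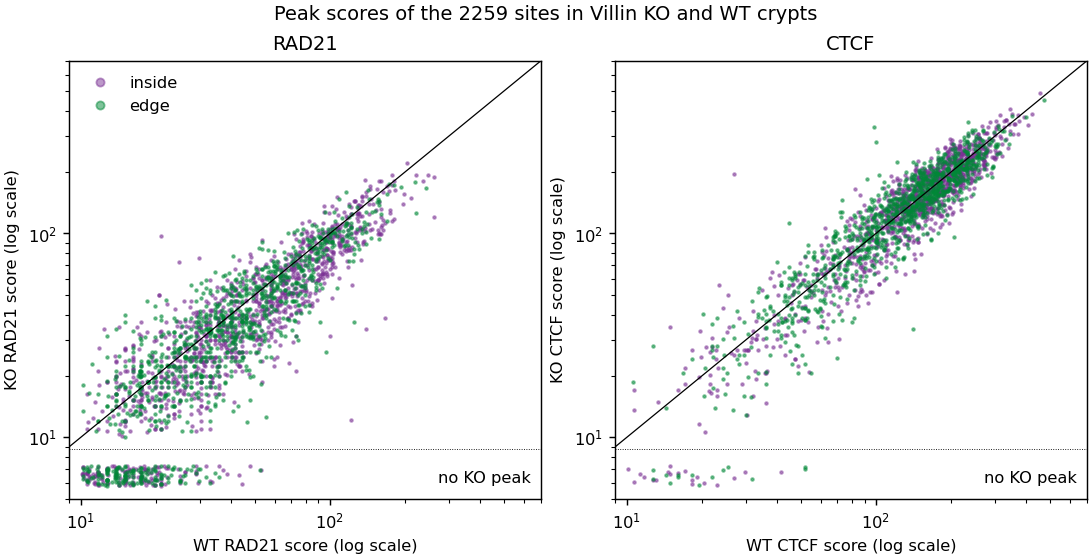
Peak score in Villin KO crypts (y axis) against WT crypts (x axis), both on log scales, for RAD21 (left) and CTCF (right) at the 2259 members, inside (purple) and edge (green), with the line of equal scores. Points below the dotted line had no KO peak and are drawn at a fixed height with a random offset. The 308 lost RAD21 peaks lie at WT scores up to 53.1, and 33 CTCF peaks were lost.

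RAD21 losses were concentrated at low WT scores, at members as at sites beyond 5 kb. Since a peak counts as lost when it is not listed, and the lists start at a score of 10, part of this relation is given by the definition. With all co-occupied sites divided into 5 bands of about equal number by WT RAD21 score, the lowest band (10.1 to 18.6) lost 51.6% of its members' RAD21 peaks and 51.2% of those beyond 5 kb without PCGF6. In the next band, 18.6 to 27.6, the losses were 20.7% at members and 20.9% beyond. From 27.6 to 42.8 they were 4.22% and 5.06%, and from 42.8 to 69.5 they were 1.11% and 0.339%. None of the 558 members above 69.5 lost RAD21, which leaves an upper bound of 0.659%. The intervals of inside and edge members overlapped in every band. In the lowest one, 51.0% of inside and 52.2% of edge members were lost. Over all scores the losses were 12.6% inside and 14.8% at the edge, with overlapping intervals (10.8 to 14.6 and 12.7 to 17.1). The log2 ratio of remaining RAD21 peaks also varied with WT score. From the lowest band to the highest, its median inside was 0.15, −0.15, −0.21, −0.33 and −0.25. At the edge it was 0.19, −0.08, −0.12, −0.19 and −0.19. At sites beyond 5 kb without PCGF6 it was 0.18, −0.04, −0.17, −0.17 and −0.21. The inside median was the lowest in each band, but in the third and highest bands it lay close to that beyond 5 kb. No intervals were computed for these medians. The highest band held 29.0% of inside members, 19.7% of edge members and 16.6% of sites beyond 5 kb without PCGF6.

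**Figure D3:**
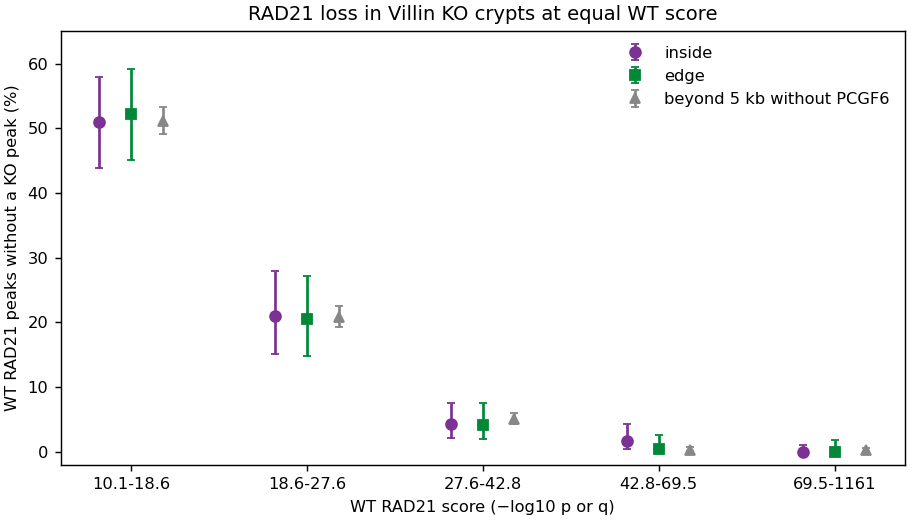
Share of WT RAD21 peaks without a KO peak in Villin crypts (y axis, percent, with exact 95% intervals) in 5 bands of WT RAD21 score (x axis), for inside members, edge members and sites beyond 5 kb without PCGF6. The 3 symbols of a band overlap in their intervals in every band, and the share falls with score from above 50% to below 2%.

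Members that lost only RAD21 had weak RAD21 peaks on moderate CTCF peaks. Their median WT scores were 16.2 for RAD21 and 76.0 for CTCF, against 44.3 and 153 at members that kept both. Their CTCF peaks scored 70.8 in KO at the median, and the median log2 ratio of KO to WT was −0.07 (interval −0.14 to −0.01). The strongest of the lost RAD21 peaks lay 13018 bp from Rplp1, a ribosomal protein gene, with a WT RAD21 score of 53.1 and CTCF scores of 133 in KO and 166 in WT. Another member beside it (chr9:61898421-61898911), with the same CTCF scores, scored 46.6 for RAD21 in KO and 26.0 in WT. RAD21 thus stayed listed close by. A peak within Thsd4 followed, with a WT RAD21 score of 52.3 and CTCF scores of 108 in KO and 100 in WT. It lay 99 bp outside a WT region and inside a KO region. The peak in 2700081O15Rik had a WT RAD21 score of 47.6, and that in Reps1, inside a region of 47187 bp, one of 44.6. Peaks in the transcription factor genes Prdm8 and Ebf3 had 43.1 and 38.7. CTCF at Ebf3 was close to the lowest score listed, at 17.0 in KO and 10.7 in WT.

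The few CTCF losses were at weak CTCF peaks. The 27 members that lost both had median WT scores of 14.1 for RAD21 and 17.2 for CTCF, and the highest CTCF score among them was 51.9. They included sites in Mfhas1 (RAD21 28.9, CTCF 41.7 in WT), Kl, the gene of the ageing-linked co-receptor klotho (25.0 and 23.1), and Lbh (18.8 and 14.9). The 6 that lost CTCF alone had WT CTCF scores between 11.7 and 20.4. Among them were sites in the growth factor receptor gene Fgfr2, where RAD21 scored 12.0 in KO and 12.8 in WT, and in the surface glycoprotein gene Cd24a, where it scored 11.0 in KO and 10.6 in WT.

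Sites new to the KO lists were few. Of 2112 KO co-occupied sites that met the same conditions on H2AK119ub1 and PCGF6, 162 (7.67%) had no WT RAD21 peak, against 9.69% of all 16607 KO co-occupied sites. Of these 162, 155 lay on a WT CTCF peak, and their RAD21 scores had a median of 14.9 and a maximum of 36.9.

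Members that also carried RING1B lost more. On a Villin WT RING1B peak lay 167 members, and 24.0% of them (interval 17.7 to 31.2) lost RAD21 and 5.99% (2.91 to 10.7) lost CTCF, against 13.6% and 1.46% of all members. Their median WT RAD21 score was lower, at 30.3 against 38.7. Within the lowest band of score the RAD21 loss was 57.4% with RING1B (27 of 47, interval 42.2 to 71.7) and 50.8% without it (184 of 362, 45.6 to 56.1). In the second band it was 34.8% (8 of 23) and 19.7% (63 of 320), and in the third 9.09% (4 of 44) and 3.74% (17 of 454). The share was higher with RING1B in 4 of the 5 bands, the fifth having no loss, but the intervals overlapped in each. Sites near a region that overlapped a PCGF6 peak, which are not members, lost 16.5% of RAD21 and 4.42% of CTCF peaks. Members within 5 kb of a PCGF6 peak lost 12.1% of RAD21 peaks, and those with none that near lost 14.1%. By the width of the region, RAD21 was lost at 151 of 1076 members at regions under 2 kb, and the share was 11.8% at 2 to 5 kb, 13.3% at 5 to 10 kb and 16.1% at 10 kb or more.

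The mark stayed near most members in AhCre KO crypts. There, 1763 of 2259 members (78.0%, interval 76.3 to 79.7) lay inside or within 5 kb of a KO region joined the same way. Of the 1218 inside members, 860 (70.6%) were inside a KO region, 165 at its edge and 193 beyond 5 kb. Of the 1041 edge members, 198 were inside (interval of the share 16.7% to 21.5%), 540 at the edge and 303 beyond. Those beyond made up 29.1% of edge members, against 27.5% of 970 edge CTCF peaks without RAD21 or PCGF6. For inside members, and for the members as a whole, no comparable share was counted. The KO list was also longer, with 16039 peaks against 13175 in WT, or 14089 and 13146 without chromosome X. RAD21 was lost at 13.5% of the members that still had a KO region near them and at 14.1% of those that did not. The 2 readouts come from different Cre lines.

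Regions with a member were kept about as often as others of their width. A KO peak overlapped 72.2% of the regions with a member (1441 of 1997) and 69.1% of all 8948 regions, of which 30.9% had none. Below 2 kb, 49.5% of regions with a member and 47.7% of those with no co-occupied site within 5 kb were kept. At 2 to 5 kb these shares were 87.8% and 88.4%, at 5 to 10 kb 98.1% and 96.3%, and at 10 kb or more 100% of both. The median log2 ratio of the KO to the WT region score was 0.10 with a member and 0.08 over all regions.

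**Figure D4:**
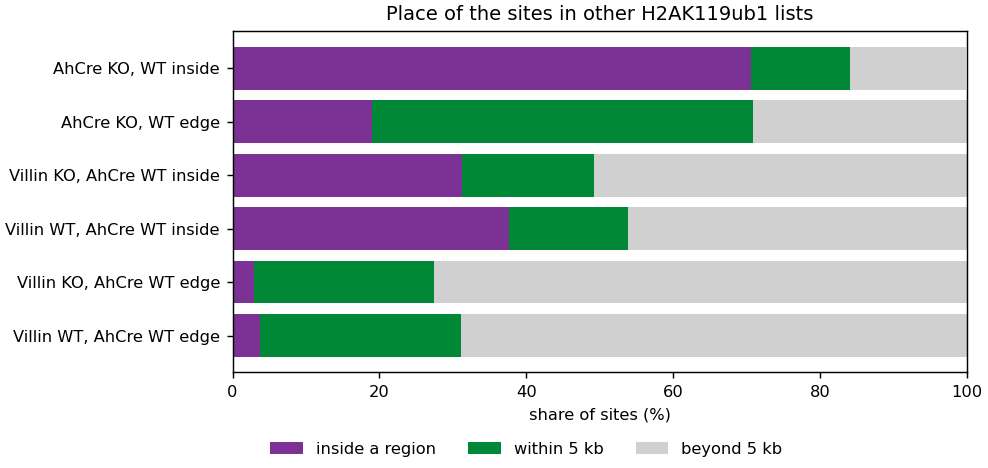
Share of members (x axis, percent) that lay inside a region, within 5 kb of one or beyond 5 kb in other H2AK119ub1 lists, separately for members inside and at the edge of the WT AhCre regions. In AhCre KO crypts 70.6% of inside members stayed inside and 198 of 1041 edge members turned inside, and the Villin lists place fewer members near the mark.

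Edge members were inside a KO region more often than edge CTCF peaks without RAD21. That happened at 198 of 1041 edge members (interval 16.7% to 21.5%) and at 102 of 970 CTCF peaks without RAD21 or PCGF6 (10.5%, interval 8.66% to 12.6%). Within 1 kb of the region the shares were close, at 26.5% and 22.3%. At 2 to 3 kb they were 17.0% (24 of 141, interval 11.2 to 24.3) and 4.37% (8 of 183), and at 4 to 5 kb 9.36% (16 of 171) and 3.90% (6 of 154). In 136 of the 198 cases 1 KO region covered both the site and part of the WT region, and in 62 cases the site had a KO region of its own. As a share of the edge sites, such separate regions stood at 5.96% of members (interval 4.60 to 7.57) and 2.16% of CTCF peaks without RAD21 (1.35 to 3.29). Place was judged by overlap of the whole peak, and the part of peak width in these shares was not tested. Without chromosome X, 195 of 1038 edge members (18.8%) and 99 of 964 CTCF peaks without RAD21 (10.3%) turned inside. Sites beyond 5 kb without PCGF6 overlapped a KO H2AK119ub1 peak in 2.59% of cases, and in 2.18% without chromosome X.

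Region ends shifted little. At the 600 ends with an edge member in regions kept in KO, the end lay a median of 67 bp further out in KO than in WT crypts (interval 34 to 100), against 14 bp (3 to 21) at 7590 ends with no co-occupied site within 5 kb. More than 1 kb outward moved 18.2% of the ends with an edge member (15.2 to 21.5) and 13.5% of the others (12.7 to 14.3). More than 1 kb inward moved 8.50% (6.39 to 11.0) and 11.6% (10.9 to 12.4).

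Among the strongest members that turned inside in KO were the site near Ano1, 219 bp from its WT region, and a site 17840 bp from Wdr11, which lay 2526 bp out and scored 94.2 for RAD21 in KO and 158 in WT. A site in Blk, a Src-family kinase gene, lay 1430 bp out and scored 142 in KO and 154 in WT. A site near Egfl7, which encodes a secreted endothelial factor, lay 2807 bp from a region of 15088 bp and scored 114 in KO and 137 in WT. Among the strongest with no KO region within 5 kb were sites in Rerg, with RAD21 scores of 160 in KO and 164 in WT, and in Ret, a receptor tyrosine kinase gene, with 110 in KO and 162 in WT. Both lay inside WT regions of under 1 kb, of 910 and 764 bp.

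The Villin lists placed fewer members near the mark in either genotype. Villin KO regions held 411 members and Villin WT regions 498, and 1374 and 1280 members lay beyond 5 kb of any such region. The Villin lists are also shorter, with 5492 peaks in KO and 6219 in WT, against 16039 in AhCre KO and 13175 in AhCre WT, or 14089 and 13146 without chromosome X. Of the 498 members inside a Villin WT region, 280 (56.2%, interval 51.7 to 60.6) were inside a Villin KO region, 92 at its edge and 126 beyond 5 kb. The same share over all Villin WT regions is not given here, so these counts do not tell whether the members differ from other places.

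Hox genes, which set positional identity along the body axis, held both regions with 4 members, at Hoxd and Hoxb, and at Hoxa 1 of the 21 regions with 3. All 13 members at Hox genes lay inside a region, and all 13 were inside a KO region. They sat at 13 of 39 Hox genes (33.3%), against 7.98% of all 21883 protein-coding genes with a member. Since members were chosen near H2AK119ub1, genes that carry the mark are favoured in such a share. Of the 13 Hox members, none lost CTCF and 3 lost RAD21, against 16.4% of all co-occupied sites. In the Hoxd region (chr2:74646266-74716967, 70702 bp), the site near Evx2 scored 17.0 for RAD21 in KO and 26.0 in WT. That near Hoxd13 scored 61.4 in KO and 56.4 in WT, that near Hoxd8 57.8 in KO and 42.2 in WT, and that in Hoxd3 77.8 in KO and 75.6 in WT. In the Hoxa region (chr6:52149183-52278510, 129328 bp), the site near Hoxa9 was the strongest at any Hox gene, with 140 in KO and 197 in WT. Its neighbours scored 31.2 in KO and 29.6 in WT at Hoxa3, and 92.7 in KO and 86.1 in WT near Hoxa13. Along these clusters, strong sites kept scores of the same order in both genotypes.

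The 3 RAD21 losses were the weakest Hox sites. In the Hoxb region (chr11:96259696-96321283, 61588 bp), Hoxb6 and Hoxb3 had WT RAD21 scores of 17.4 and 13.9 and no KO peak, with CTCF scores of 109 and 36.0 in KO, against 86.3 and 38.9 in WT. In the same region Hoxb8 scored 72.9 in KO and 94.6 in WT, and Hoxb5 scored 18.6 in KO and 23.3 in WT. Near Hoxc5 the WT RAD21 score was 13.9, with CTCF scores of 54.5 in KO and 52.8 in WT. The other Hoxc member, near Hoxc8, scored 87.2 in KO and 76.1 in WT, and the one near Hoxb13, in a region of its own, 35.5 in KO and 31.7 in WT. KO H2AK119ub1 peaks lay along all 5 Hox regions with a member, and the highest score in the Hoxa region was 100 in KO and 84.6 in WT.

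**Figure D5:**
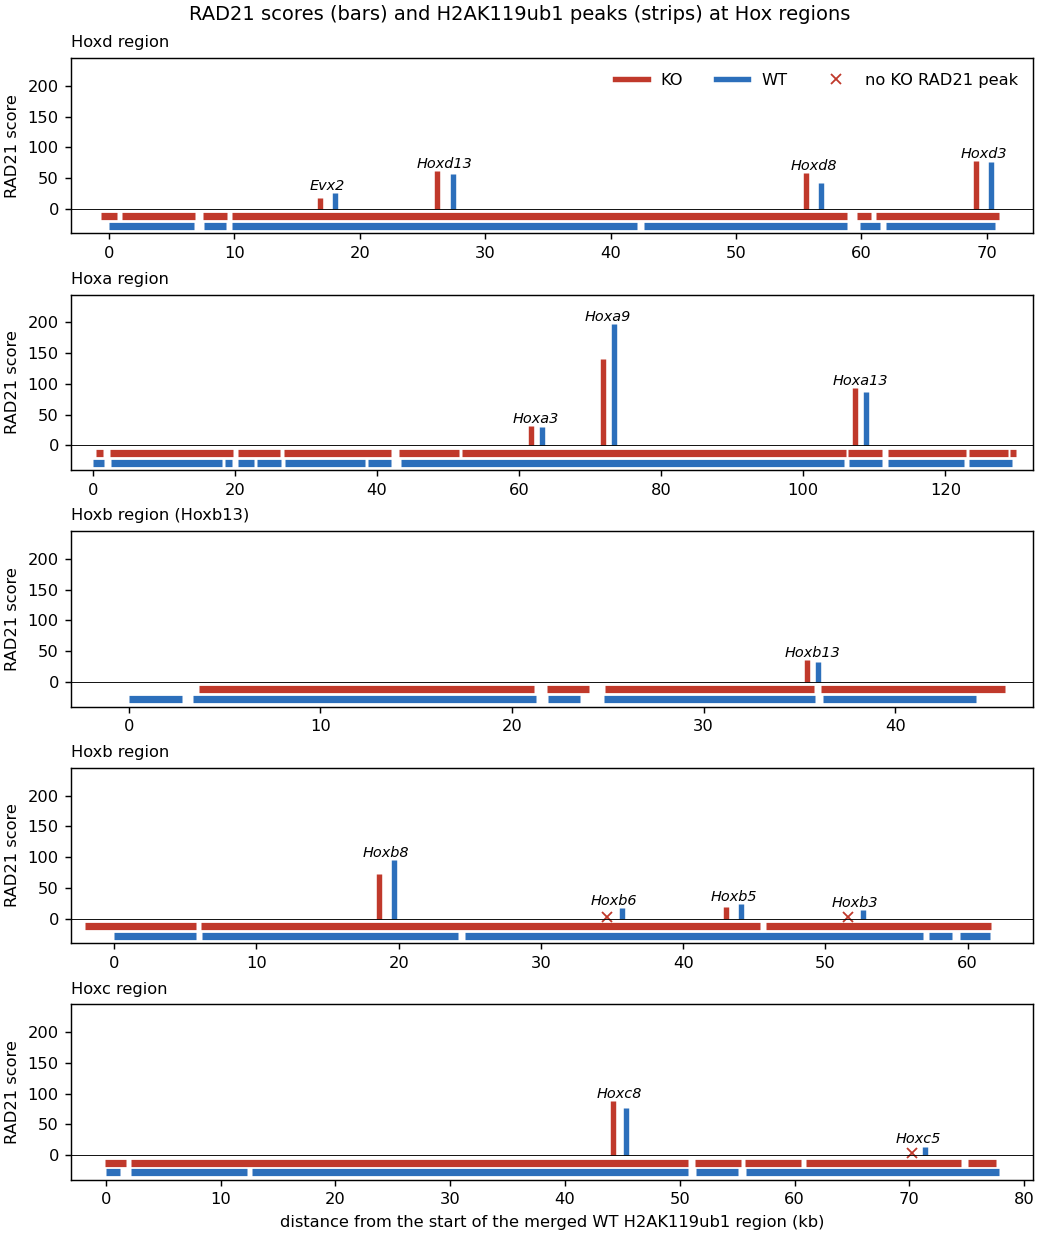
RAD21 score of each member (bars, KO left of WT, drawn side by side around the site) and H2AK119ub1 peaks of AhCre crypts (strips, KO above WT) along the 5 regions at Hox genes that hold a member, by distance in kb from the start of the region. Crosses mark Hoxb6, Hoxb3 and Hoxc5, which had no KO RAD21 peak, and the strips cover nearly the same stretches in KO and WT.

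Developmental and signalling genes carried members more often than genes at large. Enterocyte and enteroendocrine genes had a member at 1 gene each, and lists this short cannot tell that count from the share of all genes. Members had to lie inside or within 5 kb of an H2AK119ub1 region, so the choice favours genes that carry the mark. The share of genes near such a region was not counted. Several of the gene lists were also richer than genes at large in sites beyond 5 kb without PCGF6. Members were placed at 1746 genes (7.98% of 21883), and such distant sites at 32.0% of genes. RAD21 losses in the lists are to be read against 16.4% of all co-occupied sites and 13.6% of members. Sites named for this and the following lists were taken from those with the highest WT RAD21 scores, which favours a lower KO score. Of 138 developmental transcription factors in the list, 43 had a member (31.2%), with 57 sites, of which 46 were inside. Distant sites were placed at 31 of the 138, at 19 of 63 Wnt pathway genes, 28 of 60 BMP and TGF-beta genes, 13 of 20 intestinal stem cell genes, 12 of 26 tuft genes, 25 of 50 Polycomb genes, 7 of 35 Notch and secretory regulators and 15 of 29 enterocyte genes. RAD21 was lost at 7 of the 57 and CTCF at 3. Tbx3, a T-box factor, scored 86.3 in KO and 123 in WT, as given above. The edge site near Nkx3-2 scored 79.0 in KO and 125 in WT, that near Foxc1 scored 101 in KO and 105 in WT, and the inside site near Dlx3 scored 64.6 in KO and 96.4 in WT.

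Of 63 Wnt pathway genes, 18 had a member (28.6%), with 25 sites and 4 RAD21 losses, a share near the 16.4% of all co-occupied sites. Among the ligand genes, Wnt5a scored 89.3 in KO and 109 in WT, and the nearer of the sites at Wnt7b 58.9 in KO and 89.5 in WT. Of 20 intestinal stem cell genes, 6 had a member. The site near Sox9, a transcription factor of crypt base and Paneth cells, scored 73.0 in KO and 89.5 in WT. That near Ephb3, the receptor that helps position Paneth cells, scored 103 in KO and 80.1 in WT, and that near the Wnt target Axin2 scored 36.1 in KO and 51.9 in WT. BMP and TGF-beta genes had a member at 13 of 60, with 1 RAD21 loss among 16 sites. The site 99 bp from Tgfb3, a ligand gene, scored 91.8 in KO and 112 in WT and turned inside in KO.

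Tuft cells are the chemosensory cells of the epithelium. Of 26 tuft genes, 6 had a member, with 10 sites, 1 RAD21 loss and a median WT RAD21 score of 69.0, the highest among the lists. Pou2f3, the regulator needed for tuft cells, had a site within it, at 70.9 in KO and 102 in WT, and one 4556 bp away, at 136 in KO and 94.6 in WT. Trpm5, the taste-type cation channel gene, had sites at 50.9 and 41.4 in KO, against 83.3 and 66.1 in WT. Notch and secretory regulators had a member at 8 of 35 genes and lost RAD21 at 3 of 11 sites, against 16.4% of all co-occupied sites. The site in the receptor gene Notch3 scored 75.9 in KO and 83.5 in WT. Polycomb genes themselves had a member at 10 of 50, among them Cbx8, a chromobox subunit of canonical PRC1, at 91.6 in KO and 117 in WT. Imprinted genes had one at 6 of 41, with no RAD21 loss, and the inside site within Gnas scored 74.6 in KO and 89.5 in WT while no KO region lay within 5 kb.

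Lists of mature epithelial cells and of other cells of the tissue varied. Enterocyte genes had a member at 1 of 29 (Gata4, at 12.0 in KO and 22.4 in WT) and enteroendocrine genes at 1 of 25. Over all protein-coding genes the share was 7.98%, and counts this small are not set apart from it. Goblet and Paneth genes had a member at 4 of 25, including sites 38209 bp from Reg3b and 43728 bp from Reg3g, antimicrobial lectin genes. Immune cell genes had none of 21, clustered protocadherins none of 57 and the CTCF and cohesin machinery none of 23. Mesenchymal and endothelial genes had a member at 7 of 23 (30.4%) with no RAD21 or CTCF loss, including Pdgfrb, at 95.5 in KO and 92.9 in WT. A peak list does not tell in which cells of the crypt preparation a site was bound. Some lists share genes, such as Pou2f3 and Sox9.

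RING1B peaks at members were strong and often kept. AhCre KO crypts had no RING1B peak at 33 of 139 WT peaks that overlapped a member (23.7%, interval 16.9 to 31.7), against 43.8% of all 2368 WT peaks. In the Villin line it was 42 of 161 (26.1%, interval 19.5 to 33.6), against 55.1% of all 4403. The RING1B peaks at members had higher median WT scores, 26.3 against 16.3 in AhCre and 21.9 against 14.7 in Villin. The part of the score in the difference in loss was not tested. Members also left out sites with a WT PCGF6 peak, while the full RING1B lists were not filtered for PCGF6. The part of that choice was not tested either. A Villin RING1B peak covered 124 members in KO (5.49%) and 167 in WT (7.39%), and 137 of the 167 were inside. At sites beyond 5 kb without PCGF6 the shares were 0.164% in KO and 0.338% in WT. In AhCre crypts 102 members were covered in KO (4.52%) and 147 in WT (6.51%), against 0.0779% beyond in either genotype. Members were chosen near the mark that RING1B places, so the choice itself favours such a gap.

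Some of the sites lay on Polycomb peaks of ESC. ESC RING1B peaks overlapped 224 members (9.92%, interval 8.71 to 11.2), 184 inside and 40 at the edge, against 0.571% of sites beyond 5 kb without PCGF6. ESC PCGF6 peaks overlapped 123 members (5.44%, interval 4.55 to 6.46), against 0.969% beyond, while the choice of members left out every site with a WT crypt PCGF6 peak. Members were chosen near crypt H2AK119ub1 and the compared sites away from it, so the choice itself favours a gap in Polycomb overlap. The KO crypts had a PCGF6 peak on 3 members.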

How the data were processed

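Chromatin was fixed with formaldehyde, per the labels' protocols. The deposited scores are −log10 p or q values of peaks that the authors called per sample. A WT input is named as their reference, per the labels. Tools in the submitters' processing notes were MACS2 2.1.1 and Bowtie 1.1.2 and 1.2.2, and builds were hg38, dm6 and mm10, with no role for each. Depth and spike counts were not used here, and the scores were not scaled between KO and WT libraries, so a deeper library can list more peaks.

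BED starts were made 1-based. Overlap was 1 bp, regions were joined within 2 kb, and a peak's score was compared with that of the strongest overlapping KO peak. Genes (GRCm38.p6, the assembly behind mm10, 21883 protein-coding) were placed by overlap or by the nearest end within 50 kb. All comparisons are descriptive. Ratios of densities have conditional binomial intervals. Members and the 16 gene lists were chosen with earlier results of these data known, and a design that searched whole peaks for the motif was limited to promoter windows, since no genome was used. Named sites were the strongest members by WT RAD21 score inside, at the edge, in each fate, in changed places of the mark, in the 5 regions with most members, and up to 4 per list. Some that this rule names are left out for length, or are not reported here. In each ESC ChIP sample, 1 description line exchanges PCGF6 and RING1B, and the titles and antibody tags were used. Counts were tested on simulated data (12 of 12 recovered) and against bedtools 2.31.1 (0 of 5 differed). Software was pandas 2.3.3, scipy 1.17.1, numpy 2.4.6 and matplotlib 3.10.9 in Python 3.11.15.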

Additional observations from a re-analysis of the deposited data

How the results depend on the processing

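Under other settings, 51 values stayed within the interval of the reported value, or for the number of members within 1.5 times, and 25 moved. Joining regions within 0 or 5 kb, or asking for 50% of the RAD21 peak to be covered, moved none of them, nor did leaving out chromosome X, which was chosen after seeing the data and left 2256 members and 78.0% near a KO region. Members up to 2 kb were inside in 68.0% of cases and near a KO region in 73.4%, and up to 10 kb in 42.1% and 81.6%. Regions from the Villin list gave 1104 members, 50% inside and 15.3% RAD21 loss. Of these members, 63.2% lay near a region of the Villin KO list, which is shorter than the AhCre KO list used for the other shares. With WT scores of 20 or more there were 501 members, 56.7% inside, 5.79% RAD21 loss, 0.200% CTCF loss, a median log2 RAD21 ratio of −0.26 and 98.8% near a KO region, and sites beyond 5 kb then lost 4.98% of RAD21 and 0.241% of CTCF peaks. Keeping PCGF6 sites gave 3413 members, 2.46% CTCF loss, log2 ratios of −0.20 for RAD21 and −0.05 for CTCF, and a density ratio of 3.16. When a KO peak had to cover 50% of the WT peak, losses were 16.2% for RAD21 and 3.05% for CTCF, and 17.1% and 2.34% beyond 5 kb. With WT lists as short as the KO lists they were 9.86% and 0.802%, and 11.8% and 0.883% beyond. Counting sites by overlap, likewise an added choice, gave a density ratio of 3.94, since overlap takes in sites that only touch a region. The stricter motif, with G also fixed after AG, was found at 19.2%. Where no construction is named, the cause was not tested. No paired analysis was possible because every group had 1 library, and for the same reason none could be left out. Without counts, a lost peak cannot be told apart from one that fell below the score of 10.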

Other observations

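Members were spread unevenly over chromosomes. They made up 17.4% of the co-occupied sites on chromosome 11 (250 of 1434), 16.7% on chromosome 15 and 8.63% on chromosome 14. Over all chromosomes, 2259 of 18000 co-occupied sites were members. Members were chosen near H2AK119ub1 regions, so these shares depend on where the regions lie, which is given here for chromosome X only. On chromosome X, 3 of 318 co-occupied sites were members (0.943%), and the AhCre WT list gave 24 of its 8948 joined regions there. Of the 302 sites on chromosome X that lay beyond 5 kb without PCGF6, 54 overlapped an H2AK119ub1 peak in AhCre KO crypts. In the AhCre KO lists of the other proteins, chromosome X held 0.711% of PCGF6 and 1.56% of RING1B peaks, against 0.775% and 0.929% in AhCre WT.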
